A study of Mus musculus with 4 samples.

Results

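The genes examined here are the Wnt ligands, their Frizzled receptors, the secreted inhibitors that block the ligands or their co-receptor, and the R-spondins that amplify the signal, in the mouse mammary fat pad (MFP). They were chosen by symbol: every gene named Wnt, Fzd, Sfrp, Frzb, Dkk, Wif1 or Rspo with its family number was taken, which gave 43 of the 55487 genes in the count table. These were 19 ligands, 10 Frizzled receptors, 10 inhibitors and 4 R-spondins. Total RNA of whole MFP was sequenced after ribosomal RNA depletion from female C57BL/6J mice, 2 of them aged (14 months) and 2 young (8 weeks), each labelled as a biological replicate. The question was how the stroma that receives a melanoma differs with age, and no animal carried a transgene, a treatment or a tumour according to the labels. The tissue was chopped and lysed whole, so each library holds the RNA of adipocytes, ducts, vessels and every other cell of the pad. Fewer cells of a type and less RNA per cell cannot be told apart in such data.

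Wnt proteins are secreted, lipid-modified signals. They bind a Frizzled receptor together with the co-receptors Lrp5 or Lrp6, which stabilises beta-catenin and switches on target genes through the Tcf and Lef factors; other ligands act without beta-catenin on cell polarity and movement. Secreted Frizzled-related proteins (Sfrp and Frzb) and Wif1 bind the ligands outside the cell, Dickkopf proteins (Dkk) occupy the co-receptors, and R-spondins keep Frizzled at the surface by engaging Lgr receptors and the ligases Rnf43 and Znrf3. In the mammary gland Wnt signals drive duct growth and side branching and maintain basal stem cells, and in fat they hold precursor cells back from becoming adipocytes.

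The libraries held between 68803304 and 98402403 counts, so that 3 counts, taken as the smallest number told from 0, equalled 0.0337 to 0.0407 CPM (counts relative to the TMM-scaled library total). Young replicate 1 stood apart: its log2 CPM correlated with those of the other 3 libraries at 0.924 to 0.944 over all genes tested, against 0.955 to 0.977 among the others. In that library the summed CPM of 7 lymphocyte markers was 636, against 3.37 in young replicate 2 and 8.55 and 60.9 in the aged libraries, and the sum of 14 mammary epithelial markers was 1802, against 4525 in young replicate 2 and 3411 and 2972 in the aged. All 12 skeletal muscle markers were higher in both aged libraries, with sums of 42090 and 67280 CPM against 10910 and 15290 in the young. Of 10 adipocyte markers, 9 were higher in both aged libraries, with sums of 14270 and 11630 against 9307 and 9598 CPM. Of all genes tested, 23.3% were higher in both aged libraries. The fat and duct markers of the labelled tissue were thus present in every library, with 10 of 10 and 14 of 14 genes kept for testing. Of 10 epidermal and hair follicle markers, 6 had enough counts, Flg and Krt27 had 0 counts in every library, and the sums lay between 6.21 and 21.8 CPM. What part these cell types had in the values below was not tested. Counts of Wnt genes whose ages do not overlap are given with and without young replicate 1; without it, 38.4% of all genes tested had both aged libraries above young replicate 2 and 38.0% below.

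The sequences just upstream of 4 genes whose values are described below are shown because DESeq2 called a difference between the ages for them and their windows lie outside or within 2 bases of the annotated gene. Each is the 250 bases before the RefSeq start on GRCm38.p6, read 5′ to 3′ on the strand of the gene, with CG dinucleotides in capitals. The windows are Sfrp5 at chr19:42202253-42202502 (minus strand), Rspo1 at chr4:124986180-124986429 (plus), Rspo4 at chr2:151842677-151842926 (plus) and Wnt9a at chr11:59306680-59306929 (plus).
Sfrp5: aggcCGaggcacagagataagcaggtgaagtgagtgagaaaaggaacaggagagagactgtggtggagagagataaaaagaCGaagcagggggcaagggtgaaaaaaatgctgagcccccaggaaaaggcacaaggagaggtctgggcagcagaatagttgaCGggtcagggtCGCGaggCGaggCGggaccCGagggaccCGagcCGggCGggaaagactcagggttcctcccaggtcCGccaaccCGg
Rspo1: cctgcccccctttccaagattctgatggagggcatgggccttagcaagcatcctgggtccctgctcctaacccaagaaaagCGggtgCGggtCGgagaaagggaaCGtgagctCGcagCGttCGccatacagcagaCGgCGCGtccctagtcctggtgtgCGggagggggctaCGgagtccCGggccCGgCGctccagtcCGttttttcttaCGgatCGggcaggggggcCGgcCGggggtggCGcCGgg
Rspo4: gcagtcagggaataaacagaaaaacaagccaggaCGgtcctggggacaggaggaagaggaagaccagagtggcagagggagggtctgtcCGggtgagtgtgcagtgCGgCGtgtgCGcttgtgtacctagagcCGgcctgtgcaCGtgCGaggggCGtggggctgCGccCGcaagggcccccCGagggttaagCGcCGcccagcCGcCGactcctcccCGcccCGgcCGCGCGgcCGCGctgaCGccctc
Wnt9a: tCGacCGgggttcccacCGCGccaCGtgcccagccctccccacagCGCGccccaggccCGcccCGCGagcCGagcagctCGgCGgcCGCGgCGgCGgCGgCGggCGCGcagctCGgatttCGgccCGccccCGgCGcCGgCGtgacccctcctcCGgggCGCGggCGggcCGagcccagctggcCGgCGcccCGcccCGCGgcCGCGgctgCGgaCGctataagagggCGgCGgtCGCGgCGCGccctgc
The Sfrp5 window holds 13 CG dinucleotides at 59.6% GC, that of Rspo1 22 at 66.8%, that of Rspo4 24 at 69.6% and that of Wnt9a 48 at 84.4%. Over 32851 such windows of all genes the median was 6 CG at 52.4% GC. Over the 32 windows that matched 29 of the 43 genes it was 22 at 67.4%, and the other genes had no window. Single windows of the family held from 4 CG, at one start of Wnt5b, to the 48 of Wnt9a. Whether CG content went with the direction of the age difference was not tested. The Tcf/Lef letters, CTTTG followed by A or T at both next positions and searched on both strands, occur in 4874 of all windows (14.8%) and in 4 of the 32, those of Dkk1, Fzd7, Wnt11 and one start of Wnt5b. None of the printed windows holds them.

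Of the 43 genes, 34 had enough counts to be tested. By the quasi-likelihood test of edgeR, adjusted after Benjamini and Hochberg over all 22485 genes tested, 0 genes were called at an adjusted p of 0.05 (0% of genes), and the smallest adjusted p among the Wnt genes was 0.36. At an unadjusted p under 0.05, 8 of the 34 passed, beside 10.5% of all genes: 7 were higher in aged MFP (7.24% of all genes) and 1 lower (3.31%). DESeq2, the tool of the study's methods, called 6 of them at an adjusted p of 0.05, against 3.67% of 23039 genes: Fzd9, Rspo1, Sfrp1, Sfrp5 and Wnt9a were higher in aged MFP (3.03% of genes were called in that direction) and Rspo4 was lower (0.642%). Both aged libraries lay above both young ones for 20 of the 34 (58.8%), where 23.3% of all genes did, and below them for 5 (14.7%), where 22.8% of all genes did. The log2 fold change was above 0 for 27 of the 34, against 47% of all genes, and its median was 0.65 against -0.036 over all genes. With 2 libraries against 2 the smallest exact two-sided permutation p of a single gene is 0.333, so separation of the libraries is a description.

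Part of that count follows from the filter on low counts. Wnt16, Wnt2b and Rspo3 passed it through the aged libraries alone and Rspo4 through the young alone, and such genes had to differ. Among the 30 that passed through both ages, both aged libraries were above both young for 17 and below for 4, beside 23.3% and 22.8% of all genes. Their median log2 fold change was 0.50. Of those 30, 6 had an unadjusted p under 0.05 and 5 were called by DESeq2, all of them higher in aged MFP. In that direction 7.24% and 3.03% of all genes did so. With young replicate 1 left out, both aged libraries lay above young replicate 2 for 21 of the 34 (61.8%, beside 38.4% of all genes) and below for 10 (29.4%, beside 38.0%).

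**Figure D1:**
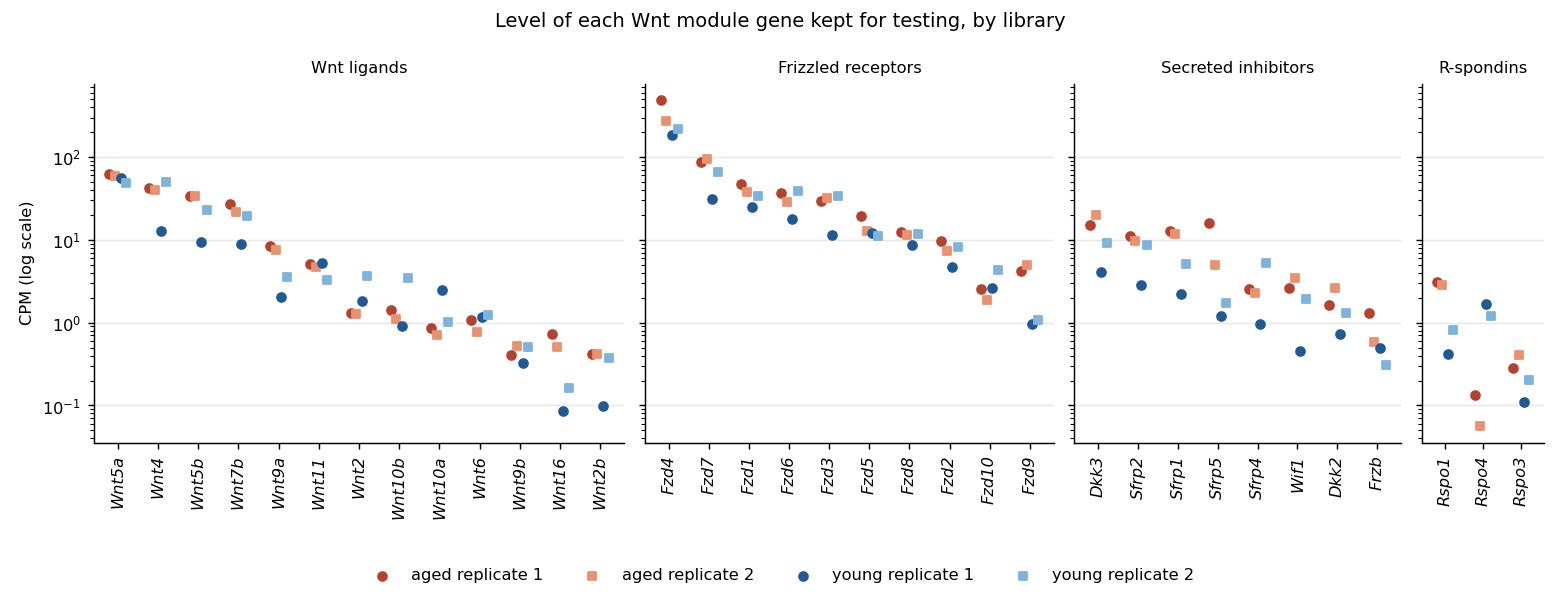
CPM on a log axis of each of the 34 genes tested, in the 4 libraries (red, aged; blue, young; circles, replicate 1; squares, replicate 2), by class and in order of mean level. Young replicate 1 is the lowest library for many receptors and inhibitors, and Rspo4 runs opposite to Rspo1.

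The 9 genes left untested were near or at 0. Wnt1, a common integration site of mouse mammary tumour virus, had 4 and 3 counts in aged and 5 and 9 in young MFP. Wnt3, another such site, had 1 count in each aged library, 3 in young replicate 2 and 23 in young replicate 1, the library rich in lymphocyte markers. Wnt8b, a ligand of the developing forebrain, had 26 counts in aged replicate 2 and 3 to 5 in the others, and Wnt8a, of the early embryo, had 0 to 8. Rspo2, an R-spondin of limb and muscle, had 5 and 3 counts in aged and 1 in each young library. Dkk1 and Dkk4, inhibitors that bind the co-receptor, and Wnt3a had at most 2 counts in any library, and Wnt7a, a ligand of the female reproductive tract, had 0 in all 4. The filter left all 9 out of the edgeR comparison, and Wnt8b, which DESeq2 gave an adjusted p, was at 0.597.

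Of the 13 ligands tested, 9 had a higher and 4 a lower mean in aged MFP, and their median log2 fold change was 0.22. Both aged libraries lay above both young for 6 ligands (46.2%, beside 23.3% of all genes) and below for 3 (23.1%, beside 22.8%), and the ages overlapped for 4. Without young replicate 1 the aged libraries were above for 7 and below for 5 (53.8% and 38.5%, beside 38.4% and 38.0% of all genes). Per length of transcript, Wnt5b, Wnt4, Wnt5a and Wnt7b were the most abundant ligands in aged MFP and together made up most of the ligand RNA in every library.

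Wnt5a, a ligand that acts mainly without beta-catenin and restrains duct growth, had the smallest standard error of the ligands. It stood at 62.1 and 58.9 CPM in aged and 55.8 and 48.2 CPM in young MFP. The libraries did not overlap, but the log2 fold change was 0.22 ± 0.14 (SE, n = 2 per age; adjusted p = 0.573). The Wnt5a gene (chr14:28504750-28527448, plus strand, GRCm38) shares exonic bases with Gm2670 on the other strand.

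Wnt5b, its close relative, known to favour fat cell formation in culture, had 33.9 and 34.4 CPM in aged and 9.45 and 22.7 CPM in young MFP. Both aged values were above both young ones, while the young libraries differed from each other by more than young replicate 2 did from the aged. The fitted log2 fold change was 1.09 ± 0.46 (SE, n = 2 per age; adjusted p = 0.501), and 0.59 without young replicate 1. The gene lies on the minus strand at chr6:119432531-119544347.

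Wnt4, which progesterone induces in luminal cells to drive side branching, was at 42.7 and 40.4 CPM in aged and 12.9 and 49.7 CPM in young MFP. The ages overlapped: young replicate 2 was the highest library of all and young replicate 1 the lowest, as for the sum of epithelial markers. The log2 fold change of 0.41 ± 0.67 (SE, n = 2 per age; adjusted p = 0.809) became -0.26 without young replicate 1. Wnt4 is at chr4:137277489-137299726 on the plus strand.

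Wnt2, a ligand known from mammary stroma, ran the other way. It had 1.30 and 1.28 CPM in aged and 1.82 and 3.71 CPM in young MFP, so both aged libraries lay below both young. This was a log2 fold change of -1.10 ± 0.46 (SE, n = 2 per age; adjusted p = 0.501), and it was below 0 with any 1 library left out (-1.53 to -0.50). Wnt2 lies at chr6:17988940-18030585 on the minus strand.

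Beside these, Wnt9a and Wnt16 had the largest differences of the ligands. Wnt9a, known from joints and skeleton (chr11:59306928-59333552, plus strand), had 8.40 and 7.55 CPM in aged and 2.04 and 3.59 CPM in young MFP. The aged libraries were 2.10-fold or more above the young ones, and the log2 fold change was 1.50 ± 0.37 (SE, n = 2 per age) with an adjusted p of 0.408 in edgeR and 0.0122 in DESeq2. Wnt16, a ligand with roles in bone and blood stem cells, had only 60 and 45 counts in aged and 7 and 12 in young libraries, or 0.734 and 0.505 against 0.0854 and 0.163 CPM. Its log2 fold change was 2.31 ± 0.52 (SE, n = 2 per age), with an adjusted p of 0.403 in edgeR and 0.0777 in DESeq2. Wnt16 passed the filter through the aged libraries alone, and its level was low even there.

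The ligands known to hold back fat cell formation through beta-catenin, Wnt6, Wnt10a and Wnt10b, all had lower means in aged MFP. Wnt10a, also a ligand of teeth and hair, had 0.856 and 0.719 CPM in aged and 2.49 and 1.03 CPM in young MFP, and was highest in young replicate 1. Its log2 fold change was -1.16 ± 0.55 (SE, n = 2 per age; adjusted p = 0.521), and -0.39 without young replicate 1. Wnt6 had 1.09 and 0.775 against 1.18 and 1.23 CPM, and its log2 fold change was -0.38 (adjusted p = 0.677). Wnt10b overlapped between the ages, with 1.42 and 1.11 CPM in aged and 0.903 and 3.48 CPM in young MFP, and its log2 fold change of -0.79 (adjusted p = 0.662) was set by young replicate 2: without it the value was 0.49. None of the 3 passed either test.

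Of the remaining ligands, Wnt7b, expressed by epithelia and macrophages, had 27.0 and 21.7 CPM in aged and 9.04 and 19.7 CPM in young MFP, and its log2 fold change was 0.76 ± 0.43 (SE, n = 2 per age; adjusted p = 0.547). Reads of Wnt7b cannot be told from those of AU022754 on the other strand where the 2 overlap, if counting ignored strand. Wnt11, which acts on cell movement, and Wnt9b, known from kidney tubules, overlapped between the ages, at 3.31 to 5.21 and 0.329 to 0.528 CPM. Wnt2b, known from lung and gut, had 0.416 CPM in both aged libraries and 0.0976 and 0.379 CPM in the young, and its log2 fold change of 0.81 was 0.13 without young replicate 1. For Wnt7b and Wnt2b the aged libraries were the higher ones, with young replicate 2 close below them.

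Frizzled receptors had the highest sum per length of the 4 classes. In aged MFP 9 of 10 had a higher mean, and the median log2 fold change was 0.45. Both aged libraries lay above both young for 5 receptors, Fzd1, Fzd4, Fzd5, Fzd7 and Fzd9 (50.0%, beside 23.3% of all genes). They lay below for Fzd10 (10%, beside 22.8% of all genes), and 4 overlapped. Without young replicate 1 the counts were 5 above and 3 below (50.0% and 30.0%, beside 38.4% and 38.0% of all genes). The sum of the class per length was 123 and 87.5 CPM per kb in aged against 50.4 and 74.0 CPM per kb in young MFP.

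Fzd9 had the smallest p of all the Wnt genes. This receptor, known from bone, had 341 and 439 counts in aged and 80 in each young library, or 4.17 and 4.93 against 0.976 and 1.08 CPM. The 2 libraries of each age lay close together, with means of 4.55 ± 0.54 and 1.03 ± 0.077 CPM (SD, n = 2), and the lowest aged library was 3.85-fold above the highest young one. The fitted difference was 2.14 ± 0.29 on the log2 scale (SE, n = 2 per age), the adjusted p 0.36 in edgeR and 3.84e-08 in DESeq2. With any 1 library left out it was 2.01 to 2.24. The skeletal muscle sum moved with Fzd9 across the ages, and its part in the value was not tested. Fzd9 is encoded at chr5:135248938-135251230 on the minus strand.

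Fzd4, which also binds Norrin in blood vessels, was the leading receptor, with 44.5% to 59.0% of the Frizzled sum per length in each library. It stood at 489 and 274 CPM in aged and 183 and 221 CPM in young MFP, and the log2 fold change was 0.92 ± 0.34 (SE, n = 2 per age; adjusted p = 0.475). Fzd7, a receptor of mammary basal stem cells, had 87.3 and 94.1 CPM in aged and 31.5 and 65.8 CPM in young MFP, and its log2 fold change was 0.90 ± 0.39 (SE, n = 2 per age; adjusted p = 0.503). For both the aged libraries were the higher ones, but neither passed a test. Fzd1, a widely expressed receptor, had 47.2 and 37.8 against 24.6 and 34.2 CPM, and Fzd5, known from gut and eye, had 19.6 and 12.7 against 12.1 and 11.1 CPM.

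Fzd3 and Fzd6, receptors of the planar polarity route, Fzd2 and Fzd8 overlapped between the ages. In Fzd2, Fzd3, Fzd6 and Fzd8, young replicate 1 was the lowest library, and young replicate 2 lay within or above the aged values. Fzd3 had 29.5 and 31.7 CPM in aged and 11.5 and 34.1 CPM in young MFP, and Fzd6 36.9 and 28.4 against 17.8 and 39.0 CPM. Fzd2 ranged from 4.70 to 9.78 CPM and Fzd8 from 8.70 to 12.3 CPM over the 4 libraries. Fzd10 was the one receptor with a lower mean in aged MFP, at 2.53 and 1.86 against 2.65 and 4.34 CPM, and its log2 fold change was -0.67 ± 0.39 (SE, n = 2 per age; adjusted p = 0.551). For Fzd10, aged replicate 1 and young replicate 1 were nearly equal.

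Of the 8 secreted inhibitors tested, 7 were higher in both aged libraries than in both young ones, where 23.3% of all genes were, and the median log2 fold change was 1.30. All 8 passed the filter through both ages. Against young replicate 2 alone 7 of 8 were above and 1 below (87.5% and 12.5%, beside 38.4% and 38.0% of all genes). Their sum per length was 23.6 and 18.8 CPM per kb in aged against 4.45 and 11.4 CPM per kb in young MFP. Even so, 0 were called by edgeR. Higher in aged MFP, 3 had an unadjusted p under 0.05 (7.24% of all genes) and 2 were called by DESeq2 (3.03%).

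Sfrp5, an inhibitor made by white fat cells that binds Wnt5a, had the largest log2 fold change of the 8. It had 1316 and 443 counts in aged and 98 and 129 in young libraries, or 16.1 and 4.97 CPM against 1.20 and 1.75 CPM. The aged libraries differed widely from each other, and the lower of them was still 2.85-fold above the higher young one. The means were 10.5 ± 7.86 CPM in aged and 1.47 ± 0.39 CPM in young MFP (SD, n = 2). The fit gave a log2 fold change of 2.84 ± 0.69 (SE, n = 2 per age), or a 7.15-fold higher level, with an adjusted p of 0.406 in edgeR and 0.0011 in DESeq2. Without aged replicate 1 it was 1.74, without young replicate 1 it was 2.59. Adipocyte markers were likewise highest in aged replicate 1, with a sum of 14270 CPM, and their part in Sfrp5 was not tested. The gene is at chr19:42197971-42202252 on the minus strand.

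Sfrp1, which binds Wnt proteins in stroma and epithelium, had 12.9 and 11.9 CPM in aged and 2.20 and 5.11 CPM in young MFP. The aged libraries lay close together and were at least 2.34-fold above the young. Its log2 fold change was 1.76 ± 0.48 (SE, n = 2 per age), with an adjusted p of 0.418 in edgeR and 0.0177 in DESeq2, and 1.28 without young replicate 1. Sfrp1 lies at chr8:23411502-23449632 on the plus strand.

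Sfrp2, secreted by fibroblasts and fat cell precursors, had 11.2 and 9.77 CPM in aged and 2.84 and 8.74 CPM in young MFP, and shares exonic bases with Gm26771 on the other strand. Young replicate 2 lay just below the aged libraries, and the log2 fold change was 0.86 ± 0.59 (SE, n = 2 per age; adjusted p = 0.581), 0.27 without young replicate 1 and 1.89 without young replicate 2. Frzb, the third of the Frizzled-related proteins by its other name, had 1.32 and 0.584 against 0.488 and 0.312 CPM, for a log2 fold change of 1.25 ± 0.58 (SE, n = 2 per age; adjusted p = 0.515), and 0.52 without aged replicate 1. Sfrp4, a relative found in fat and bone, was the exception of the class. It overlapped, with 2.54 and 2.29 CPM in aged and 0.952 and 5.29 CPM in young MFP, the 2 young libraries lying on either side of the aged, and its log2 fold change was -0.37 ± 0.86 (SE, n = 2 per age; adjusted p = 0.869).

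Among the other inhibitors, Dkk3, a Dickkopf relative whose action on Wnt signals is less clear than that of Dkk1, had 14.9 and 20.2 CPM in aged and 4.11 and 9.06 CPM in young MFP. Its log2 fold change was 1.42 ± 0.46 (SE, n = 2 per age), with an unadjusted p of 0.0362 and an adjusted p of 0.458 in edgeR. Dkk2, which binds the co-receptors, had 1.64 and 2.60 against 0.72 and 1.31 CPM, for a log2 fold change of 1.06 and an adjusted p of 0.51. Wif1, which binds Wnt ligands directly, had 2.59 and 3.49 against 0.451 and 1.92 CPM, for a log2 fold change of 1.36 ± 0.77 (SE, n = 2 per age; adjusted p = 0.547). Without young replicate 1 the value of Wif1 was 0.66, and without young replicate 2 it was 2.75. In all 3 young replicate 1 was the lowest library, and the aged libraries were above both young ones.

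**Figure D2:**
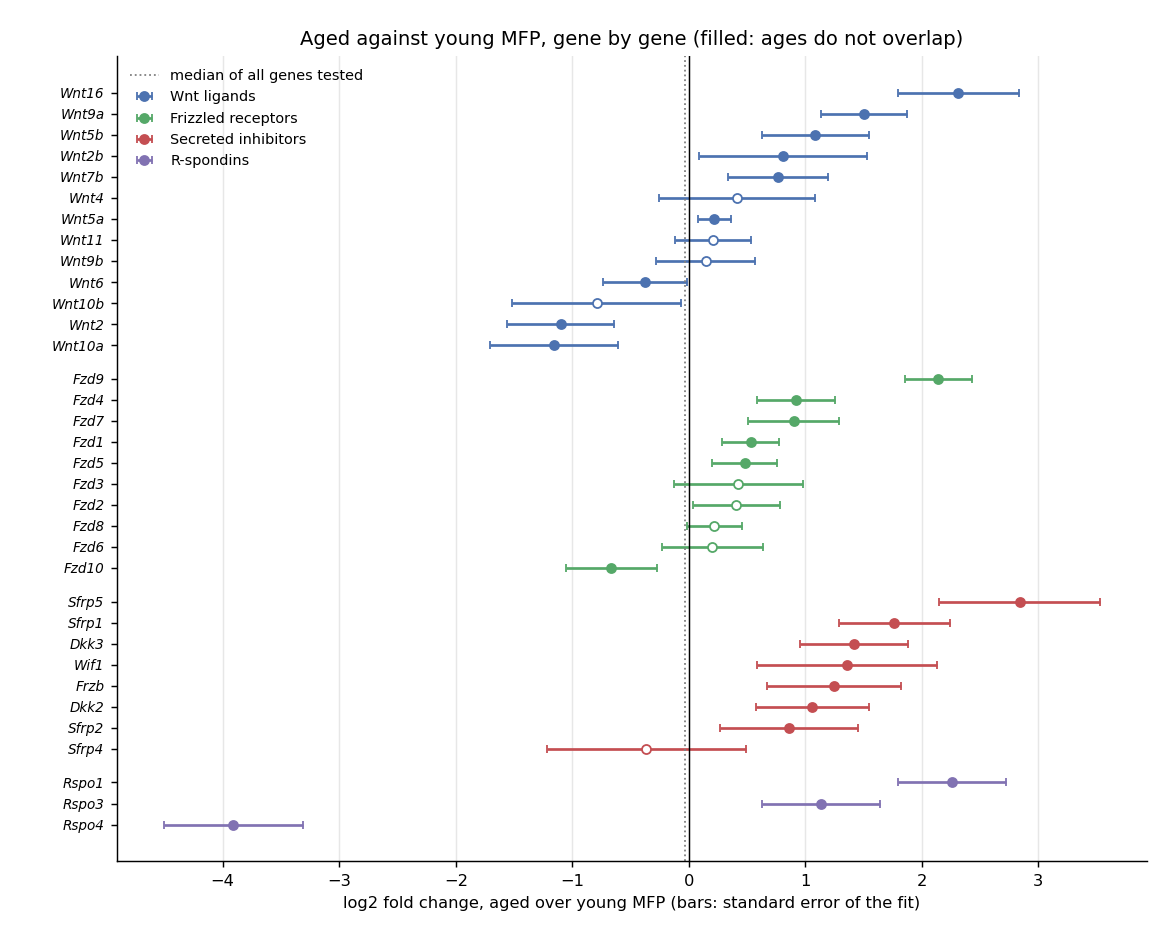
Log2 fold change of aged over young MFP for the 34 genes tested, with bars for the standard error of the edgeR fit; filled points mark genes whose ages do not overlap, and the dotted line is the median of all genes (-0.036). Of the 8 inhibitors 7 lie to the right with filled points, while Rspo4 lies farthest to the left at -3.91.

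The values of Rspo1 and Rspo4 ran in opposite directions. Rspo1, the R-spondin of mammary luminal cells and their stem cell niche, had 254 counts in each aged library and 34 and 61 in the young, or 3.11 and 2.85 against 0.415 and 0.827 CPM. The lower aged library was 3.45-fold above the higher young one. The difference came to 2.26 ± 0.46 on the log2 scale (SE, n = 2 per age), with an adjusted p of 0.382 in edgeR and 7.68e-04 in DESeq2, and 1.85 without young replicate 1. Rspo1 lies at chr4:124986430-125009099 on the plus strand.

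Rspo4, best known for its role in nail growth, had 11 and 5 counts in aged and 137 and 90 in young libraries. In CPM these were 0.135 and 0.0561 against 1.67 and 1.22, so both young libraries were far above both aged. Its log2 fold change was -3.91 ± 0.60 (SE, n = 2 per age), a level 15.0-fold higher in young MFP, with an adjusted p of 0.36 in edgeR and 5.38e-06 in DESeq2. It was the largest difference in either direction among the 34, and it passed the filter through the young libraries alone. Rspo4 lies at chr2:151842927-151874668 on the plus strand. Rspo3, an R-spondin of blood vessels, was low throughout, at 0.281 and 0.404 CPM in aged and 0.11 and 0.203 CPM in young MFP, and its log2 fold change of 1.13 ± 0.51 (SE, n = 2 per age; adjusted p = 0.509) came from 9 to 36 counts a library.

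Per length, Rspo1 made up 90.9% and 90.1% of the R-spondin sum in aged and 22.4% and 42.3% in young MFP, and Rspo4 3.22% and 1.45% against 73.7% and 51.0%. The sum itself differed less, with 1.76 and 1.63 CPM per kb in aged and 0.957 and 1.01 CPM per kb in young MFP. Within the inhibitors, Sfrp5 took 35.9% and 13.9% of the class sum in aged and 14.1% and 8.10% in young MFP. Aged replicate 2 and young replicate 1 were nearly equal in that share, although their Sfrp5 levels were not. Among ligands, Wnt5b took 30.1% and 32.4% in aged and 17.5% and 23.4% in young MFP, while Wnt5a took 35.0% in young replicate 1 and 16.9% to 18.8% in the other 3. The ligand sum was 42.4 and 40.0 CPM per kb in aged and 20.4 and 36.5 in young MFP. The inhibitor sum divided by the ligand sum was 0.557 and 0.47 in aged and 0.218 and 0.311 in young MFP, so that the 2 ages did not overlap. The receptor sum over the ligand sum was 2.91 and 2.19 in aged and 2.47 and 2.03 in young MFP, and did overlap.

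**Figure D3:**
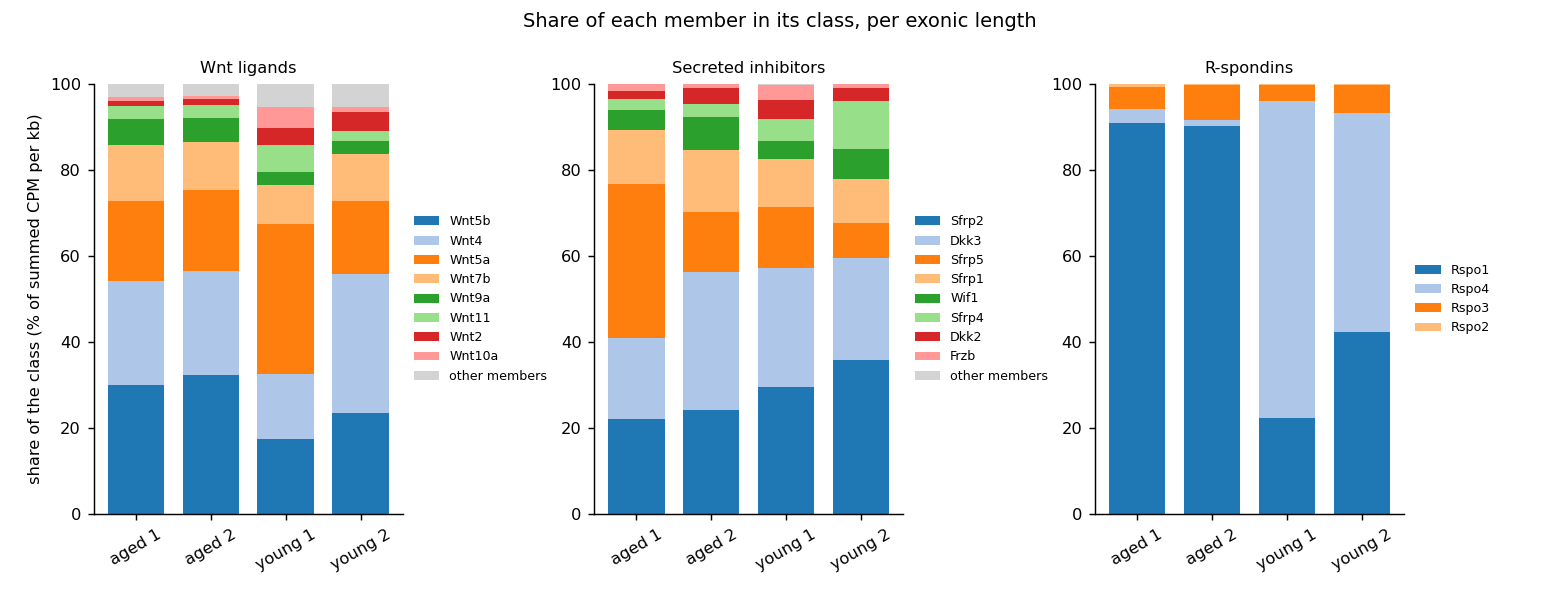
Share of each gene in the summed CPM per kb of its class (percent, stacked to 100), for ligands, inhibitors and R-spondins in the 4 libraries. Rspo1 fills 90.9% and 90.1% of the R-spondin bars in aged MFP, and Rspo4 73.7% and 51.0% in young.

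Other genes of the route were taken from 7 lists. No gene of these lists was called by edgeR, which called 0% of all genes. DESeq2 called 1, Pygo1, where it called 3.67% of 23039 genes. Of 15 co-receptors and other surface receptors tested, 5 were above (33.3%, beside 23.3% of all genes) and 2 below (13.3%, beside 22.8%) in both aged libraries, and the median log2 fold change was 0.17. Without young replicate 1 the balance was 6 above and 7 below (40% and 46.7%, beside 38.4% and 38.0% of all genes). Lgr5, an R-spondin receptor of stem cells, had 22.7 and 19.1 CPM in aged and 3.11 and 17.9 CPM in young MFP, and Kremen2, a Dickkopf receptor, had 0.147 and 0.18 against 0.512 and 0.19 CPM. Of 10 genes for ligand processing and secretion, all had a higher mean in aged MFP (47% of all genes did), with a median of 0.32. Both aged libraries lay above both young for 5 and below for 0 (50% and 0%, beside 23.3% and 22.8% of all genes). Without young replicate 1, 5 were above and 1 below (50% and 10%, beside 38.4% and 38.0%). The largest were Gpc3, a glypican that holds Wnt at the cell surface, at 0.79 on the log2 scale (adjusted p = 0.568), and its relative Gpc6 at 0.47 (adjusted p = 0.669). Of 10 other inhibitors outside the secreted families above, 3 were above and 1 below (30% and 10%, beside 23.3% and 22.8% of all genes). Their median was -0.021. Without young replicate 1 there were 5 above and 4 below (50% and 40%, beside 38.4% and 38.0% of all genes). Shisa2, which retains Frizzled inside the cell, had 17.4 and 31.1 against 6.76 and 11.2 CPM (adjusted p = 0.436). Shisa3 had 0.489 and 1.03 against 6.99 and 0.19 CPM, with the high value in young replicate 1.

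Inside the cell the lists centred near 0. The median log2 fold change was 0.048 for 23 cytoplasmic genes, 0.012 for 12 nuclear effectors and 0.12 for 14 planar polarity genes. Above in both aged libraries were 17.4%, 16.7% and 14.3% of these lists in turn, beside 23.3% of all genes. Below were 8.7%, 0% and 7.14%, beside 22.8%. Without young replicate 1 the shares above were 43.5%, 50% and 28.6%, beside 38.4% of all genes. The shares below were then 34.8%, 16.7% and 35.7%, beside 38.0%. Gsk3b, a kinase that marks beta-catenin for breakdown, had 222 and 193 CPM in aged and 147 and 157 CPM in young MFP, 0.45 higher on the log2 scale (adjusted p = 0.458). The value of Csnk1g3, a casein kinase, was -0.34 (adjusted p = 0.532). Prickle1 and Vangl1, both core polarity genes, overlapped between the ages. Pygo1, a beta-catenin co-activator, had 18.6 and 19.9 CPM in aged and 7.27 and 11.0 CPM in young MFP, for a log2 fold change of 1.08 ± 0.27 (SE, n = 2 per age) with an adjusted p of 0.0343 in DESeq2. It is named because it was the one gene of these lists that DESeq2 called.

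Lef1 and Tcf7, factors through which beta-catenin acts and which T cells also express, followed young replicate 1. Lef1 had 0.673 and 5.44 CPM in aged and 125 and 0.42 CPM in young MFP, and Tcf7 5.11 and 19.5 against 206 and 4.82 CPM. The order of the libraries was that of the lymphocyte sum, and the ages overlapped for both. Of 12 common beta-catenin target genes tested, 3 were above (25.0%, beside 23.3% of all genes) and 2 below (16.7%, beside 22.8%) in both aged libraries, and the median log2 fold change was 0.049. Without young replicate 1 the counts were 7 above and 3 below (58.3% and 25.0%, beside 38.4% and 38.0% of all genes). Axin2, the usual reporter of the beta-catenin route, had 29.8 and 21.6 CPM in aged and 24.5 and 20.0 CPM in young MFP, and the ages overlapped (log2 fold change 0.21 ± 0.24, SE, n = 2 per age).

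The cell type lists also differed between the libraries, and their part in the Wnt values was not tested. Among the 34 Wnt genes the lowest library was often young replicate 1, where the epithelial sum was 0.398 of that in young replicate 2, the smooth muscle sum 0.569 and the inhibitor sum 0.387. The R-spondin sums of the 2 young libraries were nearly equal, at 2.21 and 2.26 CPM. Adipose stromal progenitor markers had lower sums in aged (2281 and 1713 CPM) than in young MFP (3346 and 3940 CPM). The collagens Col1a1 and Col3a1 made up most of each of these sums, and the markers did not all follow them. Within that list 6 of 12 markers were above and 3 below in both aged libraries (50% and 25%, beside 23.3% and 22.8% of all genes). Without young replicate 1 the counts were 6 and 5 (50% and 41.7%, beside 38.4% and 38.0% of all genes). Among the 6 above, Dcn had 272 and 248 against 89.0 and 118 CPM and Pdgfra 135 and 97.4 against 60.1 and 80.4 CPM. The 3 below were Col1a1, the main fibrillar collagen, at 503 and 350 against 1213 and 1368 CPM, Col3a1 and Dpp4. Col3a1 had 1009 and 696 against 1702 and 2012 CPM, and Dpp4, a precursor marker, had 7.33 and 10.7 against 49.0 and 13.2 CPM. Of 12 markers of dividing cells 8 were below in both aged libraries (66.7%, beside 22.8% of all genes), with sums of 17.1 and 44.5 against 137 and 44.7 CPM. The endothelial sums were 734 and 548 against 569 and 579 CPM and the Schwann cell sums 359 and 355 against 333 and 388 CPM. The macrophage sums were 296 and 365 against 522 and 219 CPM, and all of these sums overlapped between the ages. Lyz2 alone gave 374.5 of the 522 CPM in young replicate 1, against 73.9 and 119 in aged MFP and 45.9 in young replicate 2. Of the 7 macrophage markers 4 were above and 0 below in both aged libraries (57.1% and 0%, beside 23.3% and 22.8% of all genes). Without young replicate 1, 6 were above and 1 below (85.7% and 14.3%, beside 38.4% and 38.0% of all genes). Smooth muscle and pericyte sums were 1448 and 1671 CPM in aged and 662 and 1164 CPM in young MFP, with 5 of the 7 markers overlapping. Without Des, which skeletal muscle also expresses, they were 941 and 918 against 540 and 1032 CPM and overlapped. Of 14 epithelial markers 3 (Krt5, Krt14 and Trp63) were above and 1 (Areg) below in both aged libraries (21.4% and 7.14%, beside 23.3% and 22.8% of all genes). Without young replicate 1, 3 were above and 10 below (21.4% and 71.4%, beside 38.4% and 38.0% of all genes). The 2 genes with the largest absolute log2 fold change were Lep (1.20) and Adipoq (1.00) among adipocyte markers, Areg (-2.30) and Krt5 (1.36) among epithelial, Des (2.31) and Rgs5 (0.56) among smooth muscle, and Flt4 (0.43) and Tek (0.39) among endothelial markers. For dividing cells they were Bub1 (-2.05) and Birc5 (-1.96), for macrophages Lyz2 (-1.12) and Mrc1 (0.81), for lymphocytes Cd3d (-3.78) and Cd8a (-3.51), and for Schwann cells S100b (0.53) and Sox10 (0.46). Myh2, a fast muscle myosin, had 578 CPM in aged replicate 1 and 1.06 to 2.16 CPM in the other 3 libraries, and Myh1 had 1130 and 193 against 149 and 1.99 CPM. Of the epidermal markers, Ivl had 0.648 and 0.685 against 0.0488 and 0.0136 CPM and Krt71 0.367 and 0.371 against 0.0488 and 0.0949 CPM. Krt15 ran the other way, at 4.92 and 2.90 against 6.21 and 19.2 CPM, and Krt79 was also below in both aged libraries. The epidermal sum was 8.38 and 6.21 CPM in aged and 8.64 and 21.8 CPM in young MFP. Skeletal muscle and adipocyte sums, like those of all 4 Wnt classes, were higher in both aged libraries, and no fit separated them.

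**Figure D4:**
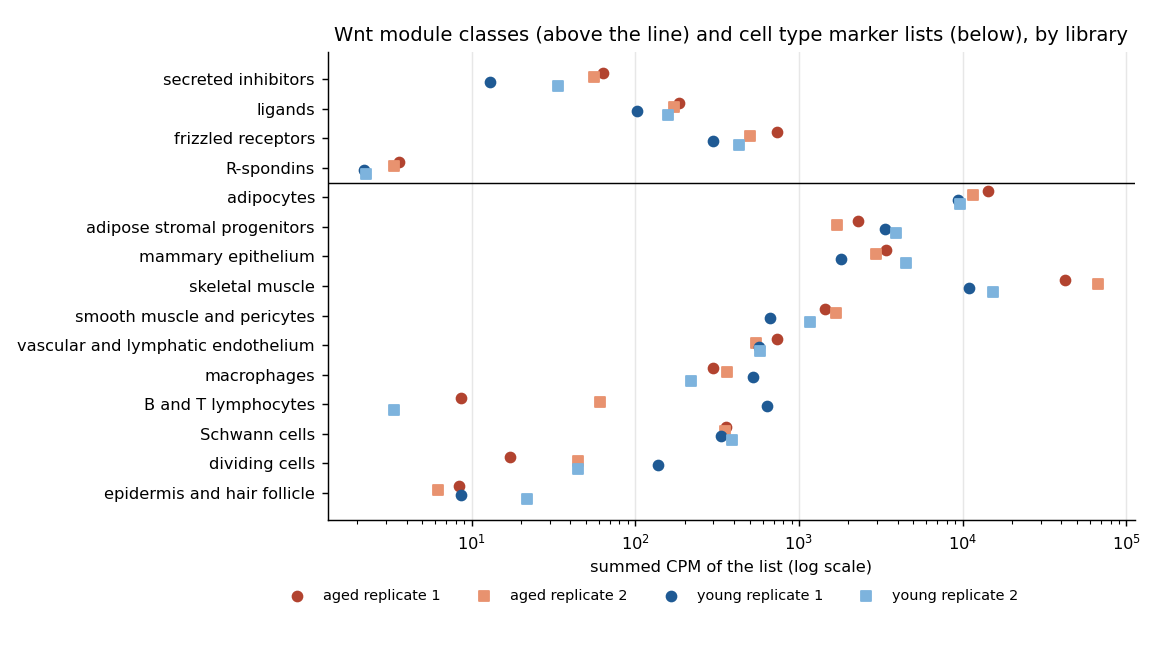
Summed CPM on a log axis of the 4 Wnt classes (above the line) and of the cell type marker lists (below it) in the 4 libraries. All 4 Wnt classes, muscle and adipocytes are higher in both aged libraries, and lymphocyte markers reach 636 CPM in young replicate 1.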

How the data were processed

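Total RNA of whole MFP was measured in 4 libraries of 2 ages, and groups and replicate numbers came from the sample labels. The authors deposited whole-number counts of reads per gene, without normalization. The submitters' processing notes name R 3.6.1, featureCounts and the builds GRCm38 and hg38; the aligner, annotation and strand setting are not given in the sources used here. The library kit keeps strand. The Wnt genes and every list were chosen with earlier results of these data known.

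The filter was filterByExpr at its default, which kept 22485 genes. After TMM scaling, glmQLFit and glmQLFTest of edgeR 4.0.16 (legacy method, R 4.3.3) were run with age as the only term and Benjamini-Hochberg adjustment over all genes tested. The standard error is the size of the log2 fold change divided by the square root of F. DESeq2 1.42.0 ran with its defaults. The p-values of both tools compare the difference between the ages with the spread between libraries of the same age. That spread is estimated with information shared across genes. CPM used TMM-scaled totals, and levels per length used exonic lengths of GENCODE M21 on GRCm38, which held all 43 genes and 55141 of the 55487 identifiers. Floors of 3 counts cover counting error only, as reads without molecular identifiers are not independent molecules. Every Wnt gene is named, and of each other list the 2 genes with the largest absolute log2 fold change. Pygo1, Axin2, Flg, Krt27, Col3a1, Dcn, Pdgfra, Krt15, Krt79, Krt14 and Trp63 were added after their values were seen. Gpr124 and Apcdd1l had no row under these symbols. Genes sharing exonic bases with a gene on the other strand are Wnt5a, Wnt7b, Wnt11, Fzd5, Fzd6, Sfrp2 and Rspo3. The code was tested on simulated data. Alternatives were other scalings, filters and tests, the replicate number as a block, and leaving out each library. The counts without young replicate 1 and the smooth muscle sum without Des were chosen after seeing the data.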

Additional observations from a re-analysis of the deposited data

How the results depend on the processing

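Over the 34 Wnt genes, 234 log2 fold changes were computed under other scalings, filters and tests. Of these 227 kept their direction and side of the threshold, 6 passed it under DESeq2 and 1 reversed. Of 136 with a library left out 9 reversed, and of 68 with a block 2 did. DESeq2 called 845 genes against 0 for edgeR, among them 6 Wnt genes against 0, and gave Sfrp5 a log2 fold change of 2.84 with an adjusted p of 0.0011; why the tools differ was not tested. With at least 10 counts in every library, Rspo3 and Rspo4 dropped out and the R-spondin median became 2.27 from Rspo1 alone. Scaling by total counts only moved the median of all genes by -0.18. The class medians were then 0.042 for ligands, 0.27 for receptors, 1.13 for inhibitors and 0.94 for R-spondins, the last being the value of Rspo3. Wnt9b became -0.044.

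With 1 library left out, 0 genes and 0 Wnt genes were called by edgeR in any of the 4 fits, in which a lone library is assumed to vary like the pair of the other age. Genes at an unadjusted p under 0.05 numbered 962 without aged replicate 1, 896 without aged replicate 2, 2737 without young replicate 1 and 6235 without young replicate 2, and Wnt genes among them 2, 6, 14 and 22. The log2 fold changes then ranged from 1.74 to 3.45 for Sfrp5, -1.53 to -0.50 for Wnt2, -0.26 to 1.69 for Wnt4, 0.12 to 0.33 for Wnt5a and 0.59 to 1.85 for Wnt5b. Medians ranged from 0.13 to 0.50 for ligands, 0.19 to 0.87 for receptors, 0.82 to 1.99 for inhibitors and 0.75 to 1.63 for R-spondins. With 3 R-spondins tested, the last of these was the value of Rspo3 alone, which passed the filter through the aged libraries only. It does not describe the class, as Rspo1 and Rspo4 lay far on either side. The sign differed with the library left out, from -0.16 without young replicate 1 to 1.41 without young replicate 2 for Fzd3, and likewise from -0.26 to 0.88 for Fzd6 (-0.015 without aged replicate 1), from -1.13 to 1.34 for Sfrp4, from -1.46 to 0.49 for Wnt10b, and in the opposite order from 0.58 to -0.080 for Wnt11. Wnt9b was at -0.14 without young replicate 1, at -0.067 without aged replicate 2 and at most 0.50. These genes overlap between the ages, and their direction is not settled with 2 libraries an age.

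Same-numbered libraries did not deviate together over the 22485 genes tested (r = -0.48), though they did over the 34 Wnt genes (r = 0.36), and with only 2 pairs the numbers were not taken as pairs. A fit with a replicate block called 0 genes, with 1346 at an unadjusted p under 0.05 against 2371 without the block, and Sfrp4 was at 0.097. A crossed pairing, chosen after seeing the data, gave 0 calls, 2494 genes at an unadjusted p under 0.05 and 0.085 for Sfrp4. Depth limits the genes under 10 counts a library.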
